A study of Mus musculus with 6 samples.

Results

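A small group of microRNAs (miRNAs) that are made without the nuclear enzyme Drosha was followed in N2A (Neuro2A) cells, a line from a mouse neuroblastoma, after silencing of the circular RNA circCpsf6. The members were taken by name from the mouse-named entries of the deposited tables, namely every arm and variant of mmu-miR-320, mmu-miR-484, mmu-miR-702, mmu-miR-877 and mmu-miR-1224. These 5 names gave 8 of the 1080 listed small RNA entries, which were miR-320-3p, miR-484, and the 5p and 3p arms of miR-877, miR-1224 and miR-702. Of the 6 small RNA libraries, 3 came from cells given an siRNA against circCpsf6 (si-circCpsf6) and 3 from cells given the siRNA labelled si-NC. Each siRNA was used at 100 nM with a lipid transfection reagent, and all cells were the same line in the same serum-containing medium. The comparison asks whether these miRNAs differ when circCpsf6 is silenced. The amount of circCpsf6 left was not analysed here.

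Most miRNAs are cut out of a long primary transcript by Drosha and its partner DGCR8, exported as a hairpin and trimmed by Dicer. miR-320 bypasses the nuclear cut, because its transcription starts at the end of the hairpin itself and the hairpin carries an RNA cap. miR-484 has been placed in the same class. Mirtrons bypass it in another way, since the hairpin is a short intron that splicing releases and that folds after the lariat is opened. The mirtrons here were miR-877, in an intron of Abcf1, a translation factor of the ABC family, miR-1224, in an intron of Vwa5b2, and miR-702, in an intron of the collagen-modifying enzyme gene Plod3. Dependence on Drosha was not measured in these libraries.

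The mature sequences are shown because they set these miRNAs apart in base composition and carry the seeds by which targets are found. RefSeq (GRCm38.p6) held 7 of the 8 member arms. They are printed 5′ to 3′ with the seed, bases 2 to 8, in capitals.
miR-484: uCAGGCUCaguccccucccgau
miR-877-5p: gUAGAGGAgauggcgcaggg
miR-877-3p: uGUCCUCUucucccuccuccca
miR-1224-5p: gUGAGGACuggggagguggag
miR-1224-3p: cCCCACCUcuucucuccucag
miR-702-5p: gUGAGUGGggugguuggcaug
miR-702-3p: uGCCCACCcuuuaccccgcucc

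No seed was shared among these 7 arms. The seed of miR-702-5p was held by 1 other mature mouse miRNA of the RefSeq table, and those of the remaining arms by 0. The longest run common to a pair of arms was CCUCUUCUC, 9 bases, from position 4 of miR-877-3p and position 6 of miR-1224-3p, counted from the 5′ end. All 7 arms were rich in G and C, from 59.1% upward, and 30.7% of the 1679 mature arms in the table were at or above that level. The mirtron arms were lopsided. G made up 55.0% of miR-877-5p, 61.9% of miR-1224-5p and 57.1% of miR-702-5p, against a median of 26.9% over all mature arms. Pyrimidines made up 90.9% of miR-877-3p, 85.7% of miR-1224-3p and 81.8% of miR-702-3p, against a median of 50%, and 2.50% of mature arms reached the lowest of these values.

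The mirtron hairpins are shown to set the arms, in capitals, against the ends of the introns.
miR-877: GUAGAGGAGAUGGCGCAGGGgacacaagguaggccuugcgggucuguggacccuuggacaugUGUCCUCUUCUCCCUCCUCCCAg
miR-1224: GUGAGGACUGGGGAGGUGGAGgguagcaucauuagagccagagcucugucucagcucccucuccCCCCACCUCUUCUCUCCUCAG
miR-702: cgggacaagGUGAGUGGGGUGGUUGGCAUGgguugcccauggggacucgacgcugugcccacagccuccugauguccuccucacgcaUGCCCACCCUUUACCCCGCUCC

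In the GENCODE M21 annotation the miR-877 hairpin (chr17:35960730-35960814, minus strand) and the miR-1224 hairpin (chr16:20604452-20604536, plus strand) each matched an annotated intron of 85 bases from end to end, on GRCm38. They begin with GU and end with AG, as do 30 of the 1005 mouse hairpins in the table (2.99%). For miR-702 (chr5:136991433-136991541, plus strand) the hairpin begins 9 bases before an intron of 102 bases in Plod3 (136991442 to 136991543), and both mature arms lie inside that intron. The 5p arm of each mirtron starts on the first base of its intron. The miR-320 hairpin (chr14:70443510-70443591, plus strand) lies outside annotated introns, 62 bases from the start of Polr3d, which encodes a subunit of RNA polymerase III and runs the other way. The miR-484 hairpin (chr16:14159626-14159692, plus strand) lies opposite an annotated exon of Marf1 and 3582 bases before Nde1, a dynein regulator needed in brain development.

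Suffixes in the entry names, read here as bases removed or added at either end, were set against the intron ends by length alone. The entry for miR-877-5p carried R+4, 4 bases beyond the reference arm, which the hairpin reads as GACA. The entry for miR-1224-3p carried R+1, and its reference arm ends on the last base of the intron, so the listed form reached 1 base past it. The entry for miR-877-3p carried L-2R+2, which likewise ends 1 base past the intron and moves the seed to CCUCUUC. The entry for miR-702-3p, with R+1, stopped 1 base short of the intron end. The letters of the added bases were not analysed here, so it is not known whether they match the genome. The sources used here do not say how the suffixes were assigned.

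The values are the authors' normalized read numbers, which summed to between 2570449 and 3268351 per library, and since they were scaled before deposit the number of reads behind them is not known. A neural identity was checked with 12 entries of miR-124, miR-9, miR-7a, miR-128 and miR-218, which held 5.03% to 11.7% of each library, whereas the liver miRNA miR-122 was listed at 0 to 5, blood miRNAs summed to 0 to 17 and muscle miRNAs to 43 to 132. The 5 epithelial entries (miR-200 family) summed to 62, 34 and 7 in si-circCpsf6, against 197, 431 and 151 in si-NC, so these groups did not overlap. At most they held 0.0147% of a library, and their part in the members' values was not tested. The library of si-NC replicate 3 stood apart. It listed 502 entries at 0, against 200 to 333 in the other libraries, and the lowest value that at least 10 entries shared was 19 there and 2 to 4 elsewhere. The labels do not state whether replicates were separate cultures. The p-values therefore reflect only how far these libraries differ among themselves, which could be technical. In such bulk samples, fewer cells of a type and less RNA per cell cannot be told apart.

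No member differed between si-circCpsf6 and si-NC beyond the spread of the libraries. By limma on log2(value + 1), with Benjamini-Hochberg adjustment over 916 entries, 0 of the 8 members had an adjusted p under 0.05, as did 0 of all 916 (0%). At an unadjusted p under 0.05 the count was 0 of 8 members, against 57 of 916 entries (6.22%). The lowest adjusted p of a member was 0.735. All 8 members had their lowest value in si-NC replicate 3, for miR-702-5p tied with 2 si-circCpsf6 libraries, and so did 528 of 916 entries (57.6%).

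**Figure D1:**
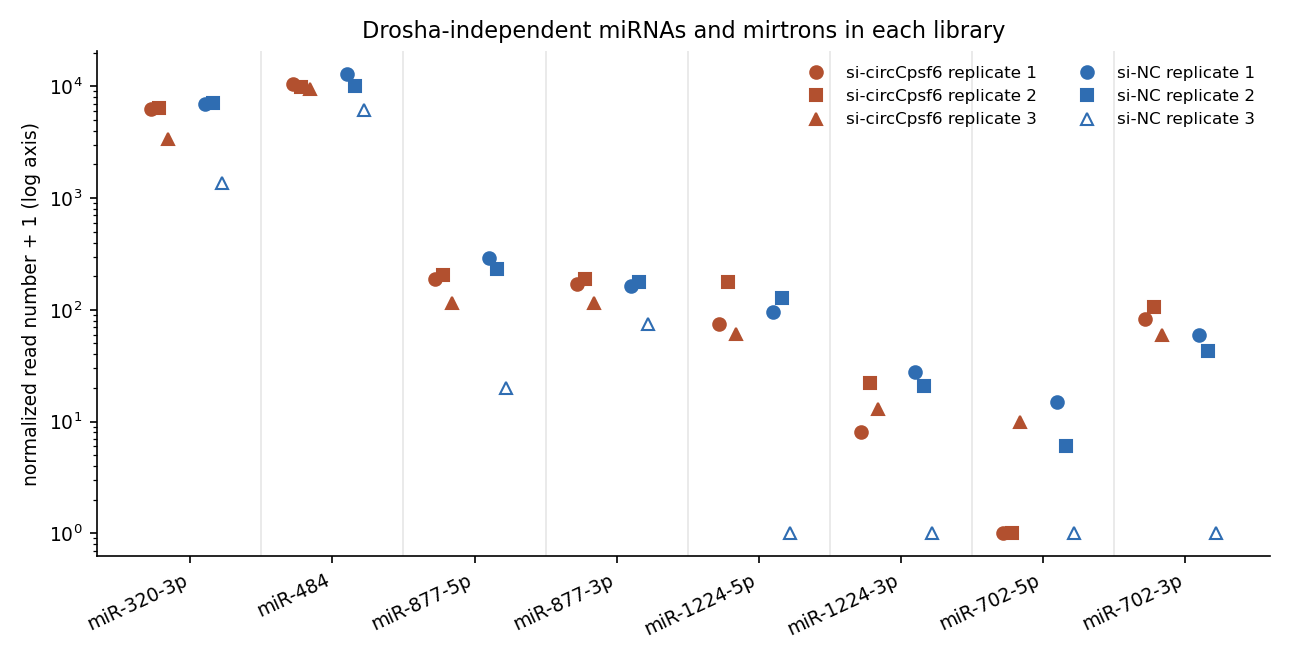
Normalized read number plus 1 (log axis) of each member entry in every library, with si-circCpsf6 at the left and si-NC at the right of each position. Entries at the bottom line are listed at 0, and the open triangle, si-NC replicate 3, is at or tied for the lowest value of all 8 entries.

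miR-484 and miR-320-3p, the members of the capped class, were by far the most abundant members. By mean over the 6 libraries miR-484, a repressor of the mitochondrial fission factor Fis1, ranked 61 among 740 mouse-named entries and miR-320-3p ranked 83. mmu-miR-484 was listed at 10496, 9808 and 9391 in the si-circCpsf6 libraries, against 12961, 10068 and 6183 in the si-NC libraries. The si-circCpsf6 libraries lay close together and wholly inside the si-NC range. The means were 9898 ± 558 in si-circCpsf6 and 9737 ± 3401 in si-NC (SD, n = 3 each). The log2 change was 0.087 (SE 0.31, 95% interval -0.62 to 0.80; limma, Benjamini-Hochberg adjusted p = 0.992). With si-NC replicate 3 left out it was -0.21 (interval -0.65 to 0.24).

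miR-320-3p, the arm of the miR-320 hairpin that is loaded into Argonaute, (mmu-miR-320-3p) was listed at 6292, 6350 and 3355 in si-circCpsf6, against 6885, 7161 and 1366 in si-NC. Replicate 3 was the lowest library of each group, and the groups overlapped. The means were 5332 ± 1713 in si-circCpsf6 and 5137 ± 3269 in si-NC (SD, n = 3 each). The log2 change was 0.33 (SE 0.63, 95% interval -1.11 to 1.77; limma, Benjamini-Hochberg adjusted p = 0.976). It was -0.46 (interval -1.28 to 0.37) when si-NC replicate 3 was left out, and all 3 si-circCpsf6 values lay under the remaining si-NC values. Groups that did not overlap, higher or lower, were then found for 290 of 932 entries (31.1%).

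The mirtrons were listed far lower. miR-877-5p ranked 307, miR-877-3p 320, miR-1224-5p 350, miR-702-3p 394, miR-1224-3p 496 and miR-702-5p 568 among the 740 mouse-named entries. Read numbers were not corrected for how well each sequence ligates or amplifies, so this is an order of listed reads.

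For miR-877, the Abcf1 mirtron, the arms stood at like levels in si-circCpsf6 and further apart in si-NC. mmu-miR-877-5p was listed at 189, 203 and 113 in si-circCpsf6, against 287, 233 and 19 in si-NC. miR-877-3p was listed at 169, 187 and 115 in si-circCpsf6, against 162, 175 and 73 in si-NC. Apart from the low value in si-NC replicate 3, the 5p arm lay lower in every si-circCpsf6 library than in either remaining si-NC library, while the 3p arm overlapped. Without that library, groups that did not overlap, higher or lower, were found for 290 of 932 entries (31.1%). Means of miR-877-5p were 168 ± 48.4 in si-circCpsf6 and 180 ± 142 in si-NC, yet its log2 change was 0.57 (SE 0.96, interval -1.63 to 2.77; limma, Benjamini-Hochberg adjusted p = 0.962). Leaving out si-NC replicate 3 gave -0.66 (interval -1.54 to 0.21). The log2 change of miR-877-3p was 0.27 (SE 0.49, interval -0.86 to 1.39; limma, Benjamini-Hochberg adjusted p = 0.965), and -0.13 without si-NC replicate 3.

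For miR-1224, the Vwa5b2 mirtron, the 5p arm was the more abundant. mmu-miR-1224-5p was listed at 73, 175 and 60 in si-circCpsf6, against 95, 126 and 0 in si-NC. miR-1224-3p was listed at 7, 21 and 12 in si-circCpsf6, against 27, 20 and 0 in si-NC. Both arms overlapped between the groups, and both were listed at 0 in si-NC replicate 3, which held 16 entries with values of 1 to 18, against 180 to 312 in the other libraries. Means of miR-1224-5p were 103 ± 63.0 in si-circCpsf6 and 73.7 ± 65.7 in si-NC (SD, n = 3 each). Its log2 change was 2.01 (SE 1.70, interval -1.88 to 5.90; limma, Benjamini-Hochberg adjusted p = 0.884), and -0.25 without si-NC replicate 3. That of miR-1224-3p was 0.65 (SE 1.36; limma, Benjamini-Hochberg adjusted p = 0.977) although its mean was 13.3 ± 7.09 in si-circCpsf6 and 15.7 ± 14 in si-NC. With that library left out it was -0.88.

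mmu-miR-702-3p, from the Plod3 intron, was the member whose groups did not overlap. It was listed at 81, 104 and 59 in si-circCpsf6, against 58, 42 and 0 in si-NC. The gap between the groups was that between 59 and 58, and groups that did not overlap were found for 107 of 916 entries (11.7%), 62 of them higher (6.77%) and 45 lower (4.91%) in si-circCpsf6. The means were 81.3 ± 22.5 in si-circCpsf6 and 33.3 ± 30.0 in si-NC (SD, n = 3 each), with a log2 change of 2.56 (SE 1.45, interval -0.78 to 5.89; limma, Benjamini-Hochberg adjusted p = 0.735). The log2 change was 0.67 (interval -0.32 to 1.67) with si-NC replicate 3 left out. The opposite arm, miR-702-5p, was listed at 0, 0 and 9 in si-circCpsf6, against 14, 5 and 0 in si-NC, too low to order the groups (log2 change -1.06, SE 1.39; limma, Benjamini-Hochberg adjusted p = 0.945). Leaving out si-NC replicate 3 moved this change to -2.14, and it was -2.16 with si-circCpsf6 replicate 3 left out and -0.19 with si-NC replicate 1 left out.

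**Figure D2:**
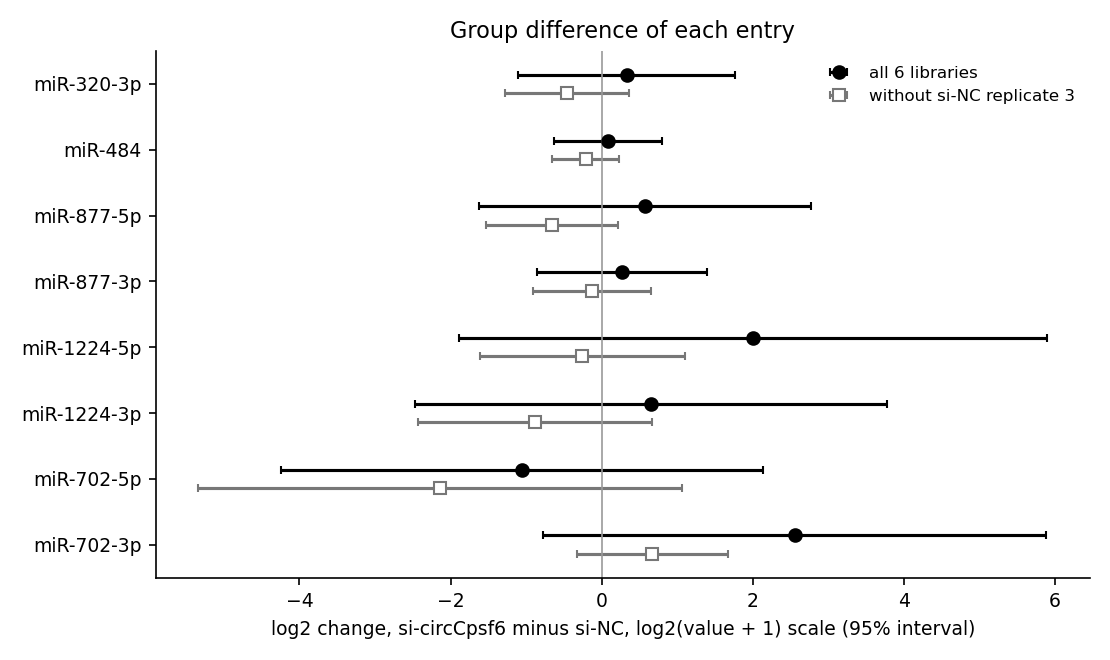
Log2 change of each member, si-circCpsf6 minus si-NC on the log2(value + 1) scale, with its 95% interval from limma, for all 6 libraries (filled circles) and without si-NC replicate 3 (open squares). Every interval spans 0, and all entries except the miR-702 arms change sign when that library is left out.

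The direction of the members rested on that library. With all libraries 7 of 8 members had a positive log2 change, with a median of 0.45, against 55.7% of all 916 entries and a median of 0.086. Without si-NC replicate 3, 1 of 8 was positive (miR-702-3p), with a median of -0.35, against 47.7% of 932 entries and a median of -0.064. Of the 932 entries 4 then had an adjusted p under 0.05 (0.429%), and 0 of them were members. The groups of miR-320-3p, miR-877-5p and miR-702-3p then did not overlap, which made 3 of 8 members, against 290 of 932 entries (31.1%). In the si-NC group, replicate 3 held 19.5% of the mean of the other libraries for miR-320-3p, 53.7% for miR-484, 43.3% for miR-877-3p and 7.31% for miR-877-5p. In the si-circCpsf6 group, replicate 3 held 53.1%, 92.5%, 64.6% and 57.7% of the mean of the others for these entries.

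Summed over all members, the mean share of the profile was nearly equal in the groups, but it rested on si-NC replicate 3. Together miR-320-3p and miR-484 summed to 16788, 16158 and 12746 in si-circCpsf6, against 19846, 17229 and 7549 in si-NC. The 6 mirtron arms summed to 519, 690 and 368 in si-circCpsf6, against 643, 601 and 92 in si-NC. In both sums si-NC replicate 3 was the lowest library and the groups overlapped. All 8 members held 0.524 ± 0.0738% of the summed values in si-circCpsf6 and 0.526 ± 0.201% in si-NC (SD, n = 3 each). The difference was -0.0021 percentage points, and -0.117 points without si-NC replicate 3. These sums are given as a description, with no test.

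The balance between the most abundant members overlapped between the groups. miR-484 was listed at 1.67, 1.54 and 2.80 times miR-320-3p in si-circCpsf6, against 1.88, 1.41 and 4.53 times in si-NC. The highest ratio of each group was in its replicate 3, where miR-320-3p was low.

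**Figure D3:**
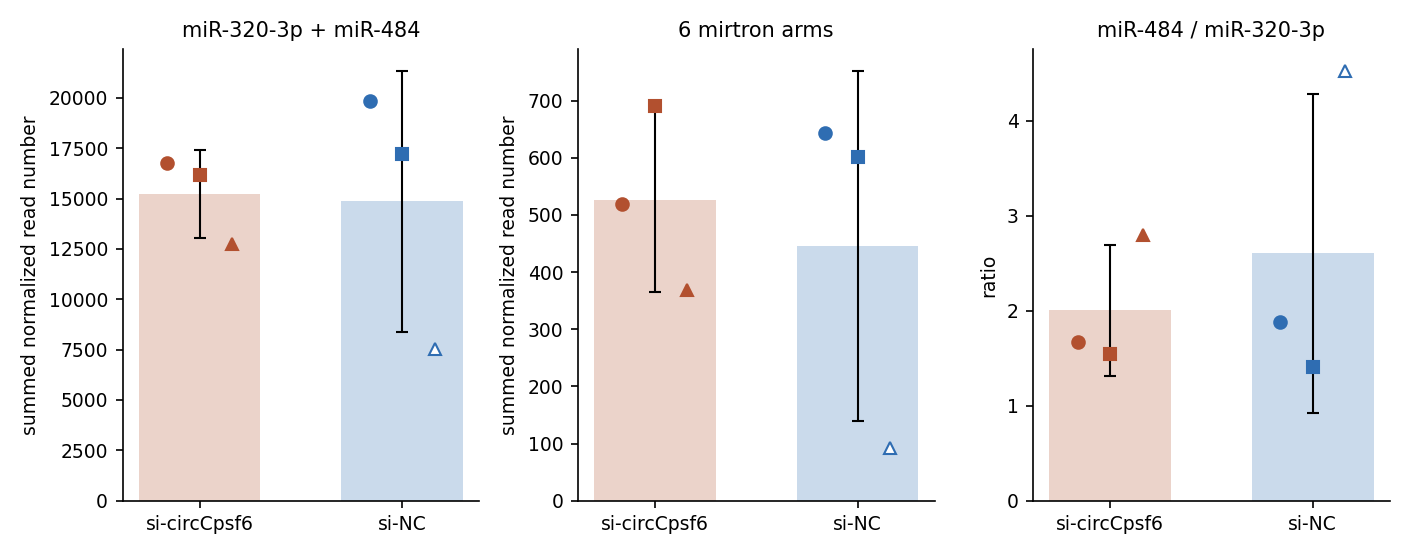
Sum of miR-320-3p and miR-484, sum of the 6 mirtron arms, and ratio of miR-484 to miR-320-3p, by group. Bars are means, error bars are SD (n = 3), circles, squares and triangles are replicates 1, 2 and 3, and the open triangle is si-NC replicate 3, which has the lowest sums (7549 and 92) and the highest ratio (4.53).

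Both arms of a mirtron come from the same intron, and their ratio describes the balance between the arms. The 3p arm held 47.2%, 47.9% and 50.4% of the miR-877 value in si-circCpsf6, against 36.1%, 42.9% and 79.3% in si-NC. For miR-1224 it held 8.75%, 10.7% and 16.7% in si-circCpsf6, against 22.1% and 13.7% in the si-NC libraries that listed the hairpin. For miR-702 it held 100%, 100% and 86.8% in si-circCpsf6, against 80.6% and 89.4% in those si-NC libraries. Thus the preferred arm was 5p for miR-1224 and 3p for miR-702 in every library that listed them. For miR-877 the 5p arm was higher in replicates 1 and 2 of each group, and the 3p arm in replicate 3. The 79.3% in si-NC replicate 3 rests on a 5p value of 19, the lowest value that at least 10 entries shared there.

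Over 217 hairpins with both arms listed, the 3p to 5p ratio passed the limma test for 0 (0%), and 6 had an unadjusted p under 0.05 (2.76%). Among these 6 was miR-702, whose log2 ratio was 3.61 higher in si-circCpsf6 (SE 1.40, interval 0.30 to 6.93, unadjusted p = 0.0365; limma, Benjamini-Hochberg adjusted p = 0.994). The groups overlapped for all 3 mirtrons, and did not for 16 of the 217 hairpins (7.37%). With 1 library left out the miR-702 difference ran from 2.81 (si-NC replicate 3 left out) to 4.93 (si-circCpsf6 replicate 3 left out). It turned on 5p values between 0 and 14, and si-NC replicate 3, at 0 for both arms, entered with a ratio of 0. For miR-877 the difference was -0.30 (SE 0.81; limma, Benjamini-Hochberg adjusted p = 0.994) and for miR-1224 it was -1.36 (SE 0.93; limma, Benjamini-Hochberg adjusted p = 0.994). With si-NC replicate 3 left out, which also entered miR-1224 with a ratio of 0, these were 0.53 and -0.63.

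**Figure D4:**
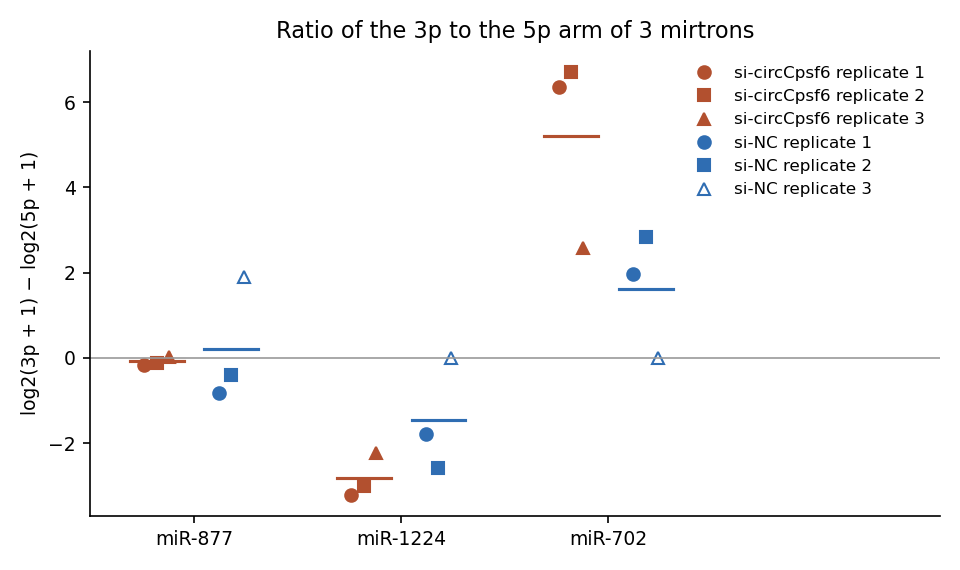
Log2 ratio of the 3p to the 5p arm, log2(3p + 1) minus log2(5p + 1), of the 3 mirtrons in each library, with si-circCpsf6 at the left, si-NC at the right and short lines at the group means. The open triangle at 0 for miR-1224 and miR-702 marks si-NC replicate 3, where both arms were listed at 0.

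The library that stood apart also differed by base composition, a pattern sought after its values were seen. Among the other mouse-named entries with a mean of 100 or more, 324 of 342 (94.7%) had an annotated hairpin. In si-NC replicate 3, the 31 entries with a hairpin GC content of 60% or more had a median log2 deviation of -1.04 from the other si-NC libraries. Of the 31, 28 were below the mean log2 value of those libraries. The 60 entries under 40% GC had a median deviation of 0.66. In si-circCpsf6 replicate 3 the deviations of the same classes were -0.26 and 0.096. They were 0.28 and -0.22 in si-circCpsf6 replicate 2, and -0.026 and 0.061 in si-circCpsf6 replicate 1. Each library was set against the others of its group, so deviations within a group partly mirror one another. GC content was 61.2% for the miR-877 hairpin, 60% for miR-1224, 65.1% for miR-702, 63.4% for miR-320 and 58.2% for miR-484. The part of GC content in the members' values was not tested. With each library's linear trend on GC content removed, 7 of 8 members had a positive log2 change, against 53.6% of 645 entries. The members' median was 0.43, against 0.45 without the removal. A straight line through all entries need not follow the members, so this setting cannot show that part.

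**Figure D5:**
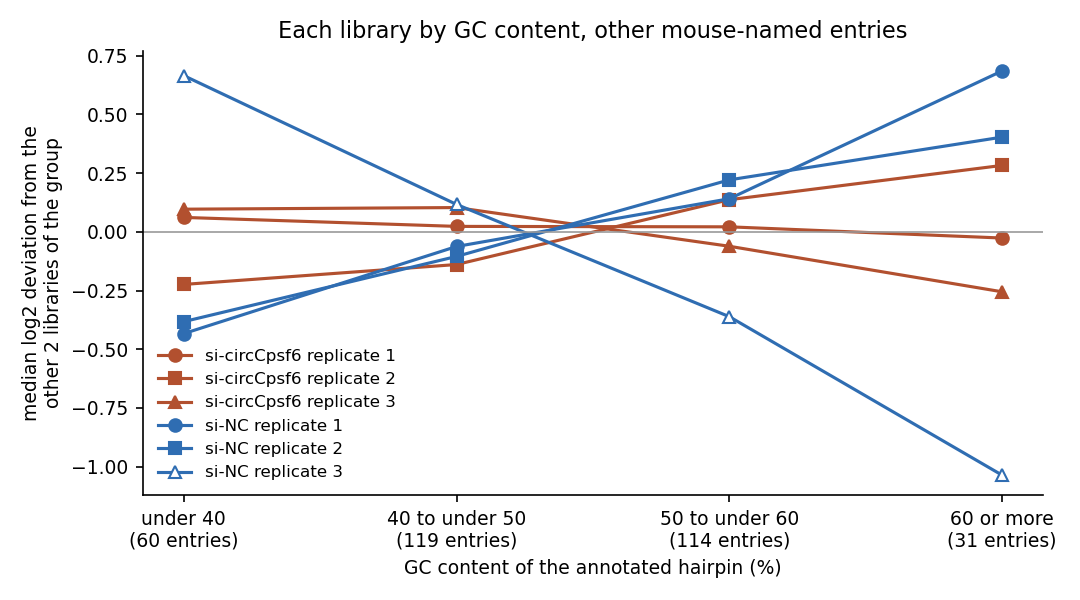
Median log2 deviation of each library from the other 2 libraries of its group, for mouse-named entries other than the members with a mean of 100 or more, by GC content of the annotated hairpin. si-NC replicate 3 (open triangles) runs from 0.66 under 40% GC to -1.04 at 60% or more. It is part of the reference for si-NC replicates 1 and 2, so their lines partly mirror its own.

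Which miRNAs varied most like the abundant members was described by the root mean square difference of log2 values, each centred on its mean over the 6 libraries, among 342 other mouse-named entries with a mean of 100 or more. Nearest to miR-320-3p was miR-339-3p (0.090, against a median of 0.906), listed at 242, 275 and 149 in si-circCpsf6 and at 280, 296 and 50 in si-NC. The next were miR-423-3p (0.278) and miR-296-3p (0.296). Nearest to miR-484 were a variant of miR-466f-3p (0.122), miR-878-3p (0.148) and miR-1843b-5p (0.155), against a median of 0.533. In each of these 6 entries si-NC replicate 3 was the lowest library, as in 528 of 916 entries (57.6%). They were picked for likeness to members that were themselves lowest in that library, so this is no separate result.

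Other miRNAs with unusual maturation gave 8 further entries, from miR-451a, which Ago2 cuts in place of Dicer, miR-664 and miR-1839, derived from small nucleolar RNAs, miR-1983, derived from a transfer RNA, and the mirtron miR-3102. By limma 0 of 8 had an adjusted p and 0 an unadjusted p under 0.05. Their log2 changes were positive for 3 and negative for 5, with a median of -0.43. miR-1839-5p was listed at 1834, 1857 and 1235 in si-circCpsf6, against 3344, 3596 and 1729 in si-NC, and miR-1983 at 2631, 2620 and 2410, against 3937, 3444 and 2057 in si-NC. The mirtron entry miR-3102-5p.2 was listed at 0 in every si-circCpsf6 library, against 7, 9 and 0 in si-NC. A second miR-1983 entry, mir-1983-p5_1ss1GA, was listed at 42, 25 and 48 in si-circCpsf6, against 40, 14 and 85 in si-NC. miR-664-3p stood at 135, 99 and 163 in si-circCpsf6, against 91, 124 and 131 in si-NC. Without si-NC replicate 3, 2 were positive (mir-1983-p5_1ss1GA at 0.61 and miR-664-3p at 0.28) and 6 negative, with a median of -0.82. By limma 3 of the 8 (miR-1839-5p, miR-1983 and miR-3102-5p.2) then had an unadjusted p under 0.05, against 127 of 932 entries (13.6%). An adjusted p under 0.05 was reached by 0.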

How the data were processed

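Per the file headers, the authors normalized the reads of each small RNA entry and deposited the result as 1 whole number per library, which was treated as a score and not as a raw read number. The build is mm9 in the submitters' processing notes. The aligner, the way of normalizing and the miRNA release were not given in the sources used here. Libraries were grouped by their titles. Of 1080 entries, 34 that repeated the values of another were merged as copies, which left 1046, and 916 with a mean of 1 or more were tested by limma 3.58.1 with trended variance (R 4.3.3) on log2(value + 1), group being the only term. Such changes can understate those of low entries, and can overstate them where 1 library is listed at 0. Arm ratios were tested in the same way. The limma step was tested on simulated data. Members and lists were chosen with earlier results of these data known. Named entries are all members, the nearest entries by distance, and the list of other non-canonical miRNAs. Alternatives were other pseudocounts (0.1 and 5), no filter, a mean of 10 or more, rescaling, mouse-named entries alone, copies kept apart, array weights, the replicate block, each library left out, and, chosen after seeing the data, values under 20 set to 20 and removal of the GC trend. Sequences came from RefSeq (GRCm38.p6), hosts and hairpin GC content from GENCODE M21 (GRCm38). Python 3.11.15 and matplotlib 3.10.9 were used.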

Additional observations from a re-analysis of the deposited data

How the results depend on the processing

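No member passed an adjusted p of 0.05 under any alternative run, nor did the 3 arm ratios, and over the 162 values so obtained the adjusted p ran from 0.154 (miR-702-5p with array weights) to 1. Over all entries 0 passed, except 4 without si-NC replicate 3 and 31 with array weights, which gave that library a weight of 0.146. The sign turned in 14 of the 162. With array weights the log2 change was -0.21 for miR-320-3p, -0.18 for miR-484, -0.45 for miR-877-5p, -0.0017 for miR-877-3p, -0.070 for miR-1224-5p and -1.07 for miR-1224-3p. Without si-NC replicate 3 these were -0.46, -0.21, -0.66, -0.13, -0.25 and -0.88, the lowest with 1 library left out, the highest being 0.74, 0.33, 1.26, 0.49, 3.24 and 1.52, all without si-NC replicate 1 or 2. The change of the miR-877 arm ratio was 0.53 without si-NC replicate 3 and lowest, -0.82, without si-NC replicate 1. With values under 20 set to 20, chosen after seeing the data, miR-1224-3p was at -0.12 and miR-1224-5p at 0.54, against 0.65 and 2.01 in the main run. The miR-702 arms kept their sign with array weights, at 0.86 for miR-702-3p and -2.71 for miR-702-5p, and with 1 library left out, at 0.67 to 3.61 and at -2.16 to -0.19. With values under 20 set to 20, miR-702-3p was at 1.09 and miR-702-5p had no difference left, since all its values lie under 20. The cause was not tested. With 1 library left out the share of the members differed by -0.117 to 0.0711 percentage points and their sum by -3403 to 3021. With the replicate block 0 of 916 entries passed, and 87 had an unadjusted p under 0.05, against 57 without it. Same-numbered libraries correlated in their deviations from the group mean at 0.047, 0.479 and 0.400. Replicate 2 of either group against replicate 3 of the other gave -0.441 and -0.399. Deviations within a group cancel out, so these values are not independent, and they are at most a hint from the data, not the design. The depth is unknown, and in si-NC replicate 3, where few entries had values under 19, miR-877-5p was listed at 19 and both arms of miR-1224 and miR-702 at 0.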

Other observations

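Beyond the mouse-named members, 4 entries named after miRNAs of other species carried the number of a member, and they were picked out after their values were seen. An entry named hsa-miR-320b_R-1 was listed at 43, 40 and 39 in si-circCpsf6, against 37, 21 and 23 in si-NC (log2 change 0.62, SE 0.62; limma, Benjamini-Hochberg adjusted p = 0.904). Its si-circCpsf6 values lay above all si-NC values, as in 62 of 916 entries (6.77%), and unlike the members it was not lowest in si-NC replicate 3. The second human-named entry, hsa-miR-320b_1ss22AT, was listed at 37, 41 and 9 in si-circCpsf6, against 23, 15 and 0 in si-NC. The chimpanzee-named forms of miR-877 were lower still, ptr-miR-877_R+3 at 6, 5 and 0 in si-circCpsf6 and 7, 11 and 0 in si-NC, and ptr-miR-877_R+4 at 0, 3 and 0 in si-circCpsf6 and 6, 9 and 0 in si-NC. How reads were divided between these names and the mouse ones is not given in the sources used here.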
